A study of Homo sapiens with 45 samples.

Results

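IMR-32 cells held for 5 days in the CDK4/6 inhibitor palbociclib (PB) were compared with control cells by RNA-seq, using the 5 control samples and the 5 samples of 5 d PB, 10 of the 45 samples of the series. IMR-32 is an established neuroblastoma line of the adrenergic (ADRN) type, with amplified *MYCN* and *MEIS1*. Cells grew in DMEM/F12 medium with fetal bovine serum, and the treated samples received 1 μM PB. The labels give the other samples as control, with no agent or vehicle named. Replicates were different passages plated in independent experiments, so all 10 samples come from 1 line. Control samples were collected with the 24 h samples of the same line, so time in culture and 5 d of PB cannot be told apart. Libraries were directional, from polyA RNA, with paired reads of a NovaSeq instrument, and the deposited values are whole-number read counts per gene. Of 29159 genes in the table, 14293 had enough counts to be tested.

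Cyclin D binds CDK4 and CDK6, and the active kinases phosphorylate RB, the retinoblastoma protein. Unphosphorylated RB holds E2F factors, which drive genes of DNA replication, and related complexes repress late cell-cycle genes in resting cells. In sympathetic neuroblasts, from which ADRN neuroblastoma is thought to arise, leaving the cell cycle is part of normal maturation into neurons that carry neurites, vesicles and the enzymes of catecholamine synthesis.

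The 10 libraries held 17190429 to 23930236 counted reads. Values per library are given below as CPM, a depth-scaled count (the gene's counts relative to the library's total), in the order of replicates 1 to 5. The libraries held the transcripts of a sympathoadrenal line: the 12 sympathoadrenal markers found were all tested (3 were higher at 5 d and 1 lower, with 5 higher when the replicate number was a block), and their summed level was 3940 to 6120 CPM in the controls and 6765 to 7926 CPM after 5 d. Blood and endothelial markers summed to at most 3.37 CPM, with *CD3E* and *PECAM1* at 0 in all 10 libraries, and Schwann and glial markers to at most 9.26 CPM, with *CDH19* at 0. Replicate 5 stood apart. By Dixon's ratio, control replicate 5 was an extreme value of its group for 2343 genes, 16.4% of those tested, and 5 d replicate 5 for 732 genes (5.12%), while each of the other 8 libraries was extreme for 32 to 176 genes. Control replicate 5 had the lowest mean level of neurite and synaptic genes and the highest of cell-cycle and mesenchymal genes among the controls. Every comparison was also computed without replicate 5 of each group. Whether the replicate numbers pair the samples across groups is not settled. A fit with the number as a block is given where it changes the call of a named gene or moves a count of calls by over 1.5 times.

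A gene was called at a Benjamini-Hochberg adjusted p under 0.05 in edgeR's quasi-likelihood test and a log2 fold change beyond 0.5 in either direction. At 5 d, 2366 genes were called higher than control (16.6% of the genes tested) and 2210 lower (15.5%), 32.0% in all. The 5 treated and the 5 control libraries did not overlap for 5585 genes (39.1%), of which 3607 were called. Without replicate 5, 2608 genes were higher (18.1% of 14383 tested) and 2432 lower (16.9%). Of 14259 genes tested in both fits, 4254 were called by both in the same direction, 314 only with replicate 5, 716 only without it and 0 in opposite directions. Another 8 called genes were tested only with replicate 5 and another 70 only without it. The scatter of all genes places *NGFR*, *DBH* and *CDH11* among the deepest falls and *KCNJ9* and *TRANK1* among the steepest rises.

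**Figure D1:**
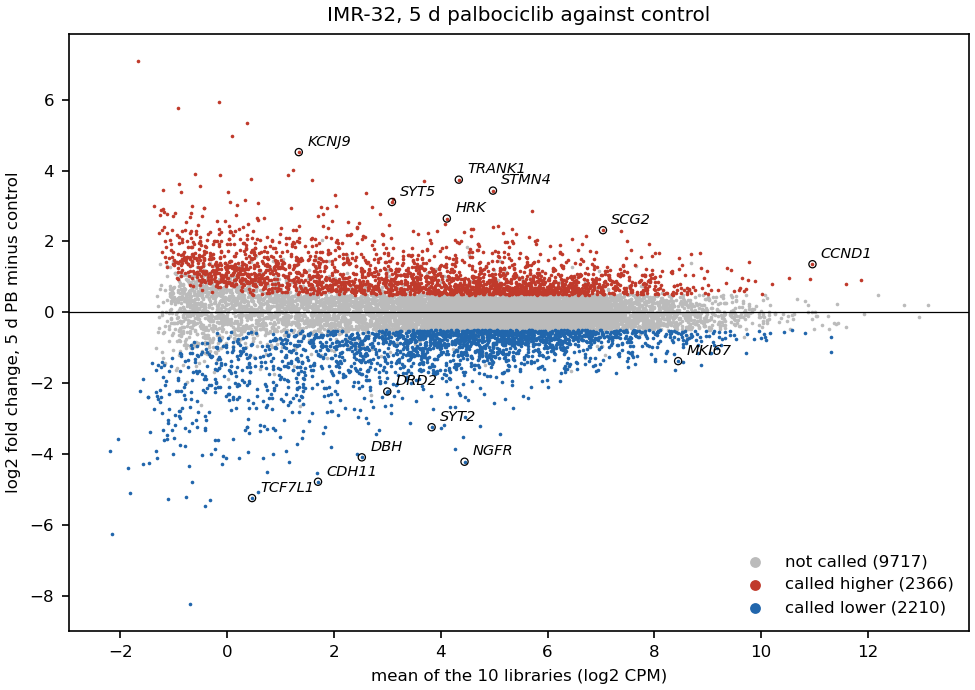
Each point is 1 of the 14293 genes tested, with its mean log2 CPM over the 10 libraries on the x axis and its log2 fold change at 5 d of PB on the y axis. Red points were called higher (2366), blue points lower (2210), and some genes described in the text are circled and named.

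Genes were grouped into 31 lists by function. Beside 16.6% of all genes called higher and 15.5% called lower, 67 of 69 genes of mitosis and the kinetochore and 47 of 57 genes of DNA replication were lower, and 0 of either list were higher. Among the 31 lists the shares called higher were largest for quiescence genes (15 of 27), synaptic vesicle genes (36 of 66) and neurite cytoskeleton genes (28 of 54). The median log2 fold change of all genes tested was 0.00, and that of these 5 lists was −1.14, −0.82, 0.63, 0.57 and 0.73.

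**Figure D2:**
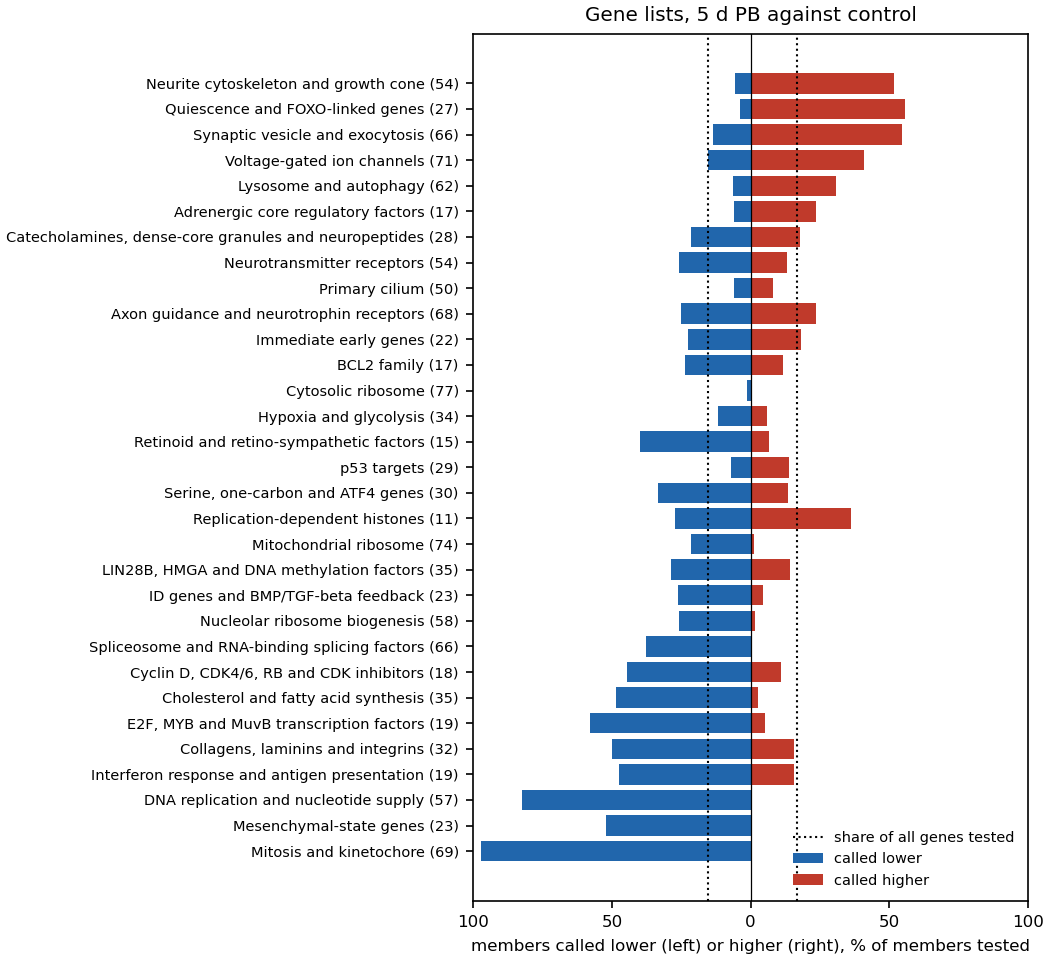
For each list (number of members tested in brackets) the bars give the percentage of members called lower (blue, to the left) and higher (red, to the right) at 5 d of PB, and the dotted lines give the same shares over all genes tested, 15.5% and 16.6%. Lists are ordered by their median log2 fold change, with mitosis at the bottom and the neurite cytoskeleton at the top.

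The replication and mitosis lists carry different letters near their start sites. RefSeq promoters (GRCh38.p14, 250 bases before to 50 after the start, the first start listed for a gene) were at hand for 10828 of the genes tested. They were searched on both strands for an E2F site (TTTCCCGC, TTTCGCGC, TTTGCCGC or TTTGGCGC), for the cell cycle homology region, CHR (TTTGAA or TTCGAA), the element at which MuvB complexes bind late cell-cycle genes, and for the cAMP response element, CRE (TGACGTCA). No motif holds another. An E2F site stood in 20 of 50 promoters of the replication list (40.0%) and in 4 of 57 of the mitosis list (7.02%), against 5.23% of the genes tested. A CHR stood in 42 of 57 promoters of the mitosis list (73.7%) and in 4 of 50 of the replication list (8.0%), against 10.7%. Among all genes called lower with a promoter (1720), 6.98% held an E2F site, 14.2% a CHR and 3.02% a CRE, and among those called higher (1640) the shares were 2.74%, 9.82% and 3.60%. Of all 27305 promoters in the table, 3.33%, 16.6% and 1.98% held the 3 motifs. These are shares of letters in a window, not of bound sites.

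The promoters of *TYMS* (thymidylate synthase, which makes dTMP for DNA) and *CDCA3* (a late cell-cycle protein) are shown because they are members of these lists with large falls, described below, whose windows hold a match. Capitals mark the E2F site in *TYMS*, read here on its other strand, and the CHR in *CDCA3*. The stretch of *TYMS* lies at chr18:657403-657662 on the plus strand and that of *CDCA3* at chr12:6851277-6851536 on the minus strand, both of GRCh38.p14, from 250 bases before to 10 after the start and printed 5′ to 3′ along the gene.
TYMS: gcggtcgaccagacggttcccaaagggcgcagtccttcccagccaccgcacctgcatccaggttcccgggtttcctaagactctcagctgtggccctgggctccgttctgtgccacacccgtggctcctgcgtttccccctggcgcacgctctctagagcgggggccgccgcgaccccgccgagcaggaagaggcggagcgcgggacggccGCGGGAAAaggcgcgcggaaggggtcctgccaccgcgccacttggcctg
CDCA3: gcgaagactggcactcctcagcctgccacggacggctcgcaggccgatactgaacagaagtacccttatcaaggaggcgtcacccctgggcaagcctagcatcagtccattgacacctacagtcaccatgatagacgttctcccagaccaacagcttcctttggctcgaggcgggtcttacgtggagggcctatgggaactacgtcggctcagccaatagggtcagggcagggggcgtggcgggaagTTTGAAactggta

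Short stretches around the first match are shown for other members with large falls and a match, chosen after their values were seen. The first 5 are of the replication list, with the E2F site in capitals, and the other 5 of the mitosis list, with the CHR in capitals. All are RefSeq sequence of GRCh38.p14, 5′ to 3′ along the gene.
POLE2: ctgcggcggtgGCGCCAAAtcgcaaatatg
PCNA: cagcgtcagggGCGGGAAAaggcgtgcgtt
CDT1: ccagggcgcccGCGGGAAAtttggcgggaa
GINS1: agctttgttcgGCGCCAAAgcgcggagcgg
CDC6: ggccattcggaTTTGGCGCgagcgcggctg
SPC25: ttaTTTGAAgccgataaatga
NUSAP1: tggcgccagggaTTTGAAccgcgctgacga
PLK1: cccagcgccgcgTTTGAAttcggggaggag
CDC20: cctctcgtacccTTCAAAtcgcgctccgcc
HMMR: aatgtggggagaTTTGAAtttgaaaccggt
They lie, in the same order, at chr14:49688201-49688230, chr20:5126663-5126692, chr16:88803743-88803772, chr20:25407667-25407696, chr17:40287875-40287904, chr2:168890660-168890680, chr15:41332882-41332911, chr16:23678848-23678877, chr1:43358791-43358820 and chr5:163460592-163460621, with *POLE2*, *PCNA* and *SPC25* on the minus strand. The proteins they belong to are a subunit of DNA polymerase epsilon (*POLE2*), the sliding clamp (*PCNA*), a pair of origin licensing factors (*CDT1*, *CDC6*) and a helicase subunit (*GINS1*), and then a kinetochore subunit (*SPC25*), spindle proteins (*NUSAP1*, *HMMR*), a mitotic kinase (*PLK1*) and the activator of the anaphase-promoting complex (*CDC20*). Their log2 fold changes ran from −1.44 to −1.11 in the first group and from −1.62 to −1.51 in the second, and all 10 were called lower, *CDC6* with an adjusted p of 0.044. The windows of *GMNN*, *AURKB*, *MGAT4C* and *HMCN2*, described below, hold none of these letters.

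Of the genes of PB's own targets, *CDK4* and *CDK6*, neither had the same call in every fit. *CCND1*, the cyclin that activates CDK4 and CDK6, rose 2.56-fold (1.36 ± 0.10, adjusted p 1.4e-07; log2 fold change ± standard error). It stood at 1328, 1269, 1085, 1411 and 1204 CPM in the controls and 3285, 3476, 3166, 3395 and 2952 CPM after 5 d, with no overlap. *CDK4* lay at 300, 290, 333, 291 and 392 CPM in the controls and 235, 204, 234, 221 and 219 CPM after 5 d (−0.54 ± 0.12, adjusted p 0.0014) and was called lower, but not without replicate 5 (−0.45) or without control replicate 5 alone (−0.45). *CDK6* stood at 0.50 ± 0.11 (adjusted p 0.0017), at the limit of the call, and was called without replicate 5 (0.51). *RB1* was at −0.38 ± 0.10, inside the limit. Of the CDK4/6 inhibitor genes called, 2 fell and 1 rose. *CDKN2C*, which encodes p18, fell from 40.0 ± 3.52 to 12.5 ± 3.07 CPM (mean ± SD, n = 5; −1.69 ± 0.15, adjusted p 1e-06), and *CDKN2A*, the gene of p16, from 21.3 ± 4.39 to 7.15 ± 0.691 CPM (−1.58 ± 0.20, adjusted p 1.8e-05), while *CDKN2D*, which encodes p19, rose (0.80 ± 0.20, adjusted p 0.0036). For *CDKN1A*, the p21 gene, the value was −0.58 ± 0.31 (adjusted p 0.13) and −0.01 without replicate 5: the 5 treated libraries lay at 12.3, 11.1, 12, 12.7 and 4.42 CPM and the controls at 12.3, 10.2, 14.2, 11.4 and 29.4 CPM, with replicate 5 the lowest treated library and the highest control. Of 18 members tested in this list, 2 were higher and 8 lower (median −0.46), beside 16.6% and 15.5% of all genes tested. Without replicate 5 the counts were 3 and 7 (median −0.27).

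Most genes for E2F and related factors were lower. *E2F7*, a repressor E2F, lay at 24.0, 23.4, 24.1, 20.6 and 79.1 CPM in the controls and 3.02, 2.51, 4.59, 4.38 and 5.54 CPM after 5 d (−3.11 ± 0.42, adjusted p 4.1e-05, and −2.52 without control replicate 5). *E2F8*, its relative, lay at 12.3, 11.1, 10.5, 9.65 and 24.3 CPM in the controls and 3.32, 2.07, 3.50, 2.85 and 4.26 CPM after 5 d (−2.10 ± 0.27, adjusted p 2.1e-05). Treated and control libraries of both genes were apart, a condition for naming members of a list, and control replicate 5 was the highest. *E2F2* fell as well (−1.42 ± 0.19, adjusted p 3.1e-05). Of 19 genes for E2F, MYB and MuvB factors, 11 were lower and 1 higher (0 higher without control replicate 5, median −0.60), beside 15.5% and 16.6% of all genes tested.

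Of 57 replication genes, 47 fell and 0 rose. *TYMS* went from 315 ± 34.6 to 109 ± 22 CPM (−1.55 ± 0.13, adjusted p 5.1e-07), *GMNN*, the inhibitor of origin licensing, fell by 1.45 on the log2 scale (adjusted p 1e-05) and *POLE2* by 1.44 (adjusted p 0.00021). *RRM2*, the small subunit of ribonucleotide reductase, stood at 114, 136, 122, 120 and 199 CPM in the controls and 45.7, 41.5, 52.4, 48.8 and 70.2 CPM after 5 d (−1.43 ± 0.16, adjusted p 5.7e-06). Every treated library lay below every control. Among mitosis genes, *AURKB*, the kinase of the chromosomal passenger complex, went from 110, 113, 110, 109 and 147 CPM to 31.6, 23.2, 34.8, 27.5 and 38.8 CPM (−1.93 ± 0.17, adjusted p 6.3e-07). *CDCA3* (−1.69 ± 0.21) and *PTTG1*, which encodes securin (−1.66 ± 0.13), followed, with adjusted p of 1.4e-05 and 3e-07. *MKI67*, the gene of the Ki-67 antigen, was at 631, 592, 411, 467 and 777 CPM in the controls and 219, 186, 201, 222 and 293 CPM after 5 d (−1.37 ± 0.24, adjusted p 0.00028), without overlap. In bulk RNA, fewer cells in cycle and less of this RNA per cell cannot be told apart.

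In these polyA-selected libraries, 11 of 50 replication-dependent histone genes found had enough counts to be tested. Of these 4 were higher and 3 lower (median −0.20), beside 16.6% and 15.5% of all genes tested. The count of lower members was 6 without replicate 5 (median −0.56), 7 without 5 d replicate 5 alone, and 10 with DESeq2, which tested 41 members. *H2BC9* fell (−2.34 ± 0.24, adjusted p 2.4e-06), whereas *H2AC6* rose from 0.752, 0.551, 0.327, 1.0 and 0.690 CPM to 2.44, 2.89, 2.46, 2.85 and 10.9 CPM (2.66 ± 0.46, adjusted p 0.00024), with treated replicate 5 far above the other treated libraries and a value of 1.96 without it. These transcripts normally lack a polyA tail, and histone genes of near-identical sequence may share reads.

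Genes linked to quiescence and FOXO factors were higher in 15 of 27 cases, with 1 lower (median 0.63). The count of lower members was 2 with the replicate block or without replicate 5, and 0 without replicate 1, replicate 2, replicate 3 or control replicate 5. *PIK3IP1*, an inhibitor of PI3 kinase, lay at 3.18, 3.26, 2.50, 3.38 and 0.402 CPM in the controls and 12.4, 16.0, 11.6, 13.9 and 5.94 CPM after 5 d (2.21 ± 0.38, adjusted p 0.00025). *MXD1*, a MAX partner that opposes MYC, rose 2.82-fold (1.5 ± 0.11, adjusted p 1.9e-07) and *DYRK1B*, a kinase that stabilizes the resting state, 2.55-fold (1.35 ± 0.24, adjusted p 0.00037). All 3 rose without overlap of the groups, which was a condition for naming members of a list. Of 29 p53 targets, 4 were higher and 2 lower (1 lower without replicate 2 or replicate 3, median −0.15), beside 16.6% and 15.5% of all genes tested. The members that rose included *TP53INP1* (1.48 ± 0.13, adjusted p 6.3e-07), *CCNG2* (0.78 ± 0.08, adjusted p 3.7e-06) and *BBC3*, the PUMA gene (1.81 ± 0.32, adjusted p 0.00034). Of 17 BCL2 family genes, 2 were higher (11.8%) and 4 lower (23.5%). The death promoter *HRK* rose 6.26-fold, from 6.63, 5.31, 6.75, 9.74 and 7.53 CPM to 52.2, 65.9, 35.5, 51.5 and 22.8 CPM (2.65 ± 0.25, adjusted p 1.8e-06), and *PMAIP1*, the NOXA gene, fell (−1.40 ± 0.15, adjusted p 3.4e-06).

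Among RNA processing and ribosome genes the falls were smaller, and the counts stand beside 16.6% of all genes tested called higher and 15.5% lower. Of 66 spliceosome and splicing factor genes, 25 were lower (37.9%) and 0 higher (median −0.41). Of 58 nucleolar genes of ribosome biogenesis, 15 were lower (25.9%) and 1 higher (median −0.39). The count of lower nucleolar genes was 25 without 5 d replicate 5 and 8 without control replicate 5, a share under 15.5%. Of 74 mitochondrial ribosome genes, 16 were lower (21.6%) and 1 higher (2 higher without replicate 3 or replicate 4, median −0.29). *PTBP1*, a splicing repressor that is lost as neurons mature, went from 615, 650, 649, 615 and 852 CPM to 313, 267, 302, 300 and 359 CPM (−1.15 ± 0.11, adjusted p 1.1e-06). *SNRPB*, a core subunit of the spliceosome (−0.93 ± 0.12, adjusted p 2.1e-05), and *FBL*, the methyltransferase of ribosomal RNA (−0.95 ± 0.12, adjusted p 1.8e-05), fell too, whereas *POLR1E*, a subunit of RNA polymerase I, rose (0.83 ± 0.09, adjusted p 2.7e-06). Of 77 cytosolic ribosomal protein genes, 1 was lower, *RPSA* (−0.62 ± 0.14), and 0 were higher (1 and 1 with the replicate block, 2 and 1 without replicate 5, and 1 higher also without replicate 1), with a median of −0.08.

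Genes of the neurite cytoskeleton and growth cone were higher in 28 of 54 cases and lower in 3, beside 16.6% and 15.5% of all genes tested. Without replicate 5 the counts were 34 and 3. The mean log2 CPM of the list was 7.32, 7.26, 7.29, 7.35 and 6.35 in the controls and 7.95, 7.99, 7.82, 7.90 and 7.67 after 5 d. All treated libraries lay above all controls, and control replicate 5 was the lowest. *STMN4*, a tubulin-binding stathmin of neurons, rose 10.8-fold, from 14.2, 10.9, 14.3, 16.5 and 1.03 CPM to 142, 159, 121, 130 and 70.4 CPM (3.43 ± 0.62, adjusted p 0.00043). Its value without replicate 5 was 3.29. *PRPH*, the intermediate filament peripherin of peripheral neurons (2.34 ± 0.30, adjusted p 2.2e-05), and *KIF5A*, a motor of axonal transport (2.01 ± 0.31, adjusted p 0.00012), rose as well. *STMN2*, the stathmin of growth cones, stood at 465, 451, 229, 580 and 9.83 CPM in the controls and 927, 1258, 725, 1035 and 641 CPM after 5 d. Every treated library was above every control, but control replicate 5 lay far below the other 4, and the value was 1.40 ± 0.76 with an adjusted p of 0.14. Without replicate 5 it was 1.18 ± 0.28 (adjusted p 0.0036), and with the replicate number as a block 2.10 ± 0.66 (adjusted p 0.018), both called. *TUBB3*, the neuronal beta-tubulin, rose (0.92 ± 0.28, adjusted p 0.014). Of the 3 members that fell, *TUBB6*, a widely expressed beta-tubulin, fell most, from 60.3, 55.6, 51.5, 52.2 and 95.7 CPM to 6.57, 5.78, 9.34, 6.25 and 13.6 CPM (−2.94 ± 0.28, adjusted p 2.2e-06), and *STMN1*, the stathmin of proliferating cells, fell by 0.56 (adjusted p 0.0005).

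**Figure D3:**
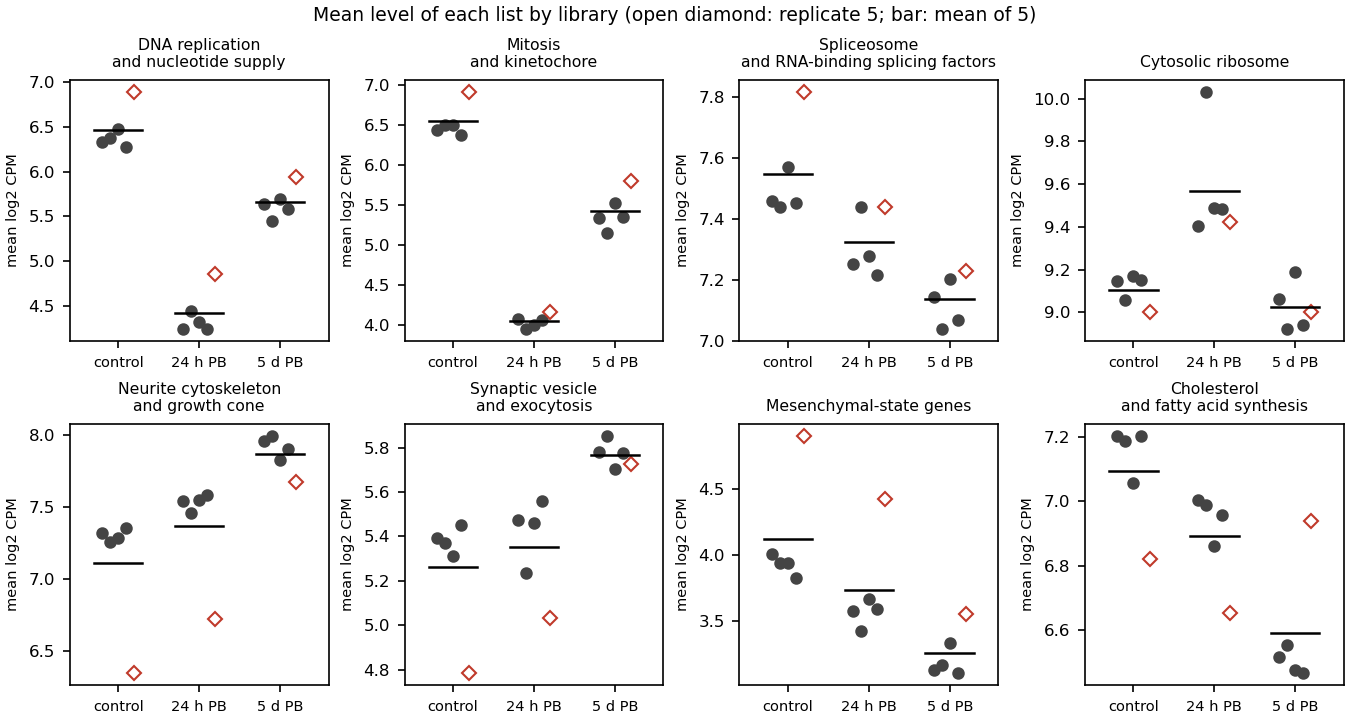
Mean log2 CPM of the members of 8 lists (y axis) in each of the 15 IMR-32 libraries, by group (x axis); the open diamond is replicate 5 and the bar the mean of 5 libraries. At 5 d the replication and mitosis lists lay between the 24 h and the control libraries, and the neurite and synaptic lists lay above both.

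Synaptic vesicle and exocytosis genes rose in 36 of 66 cases (54.5%) and fell in 9 (13.6%, median 0.57), beside 16.6% and 15.5% of all genes tested. *SYT5*, a synaptotagmin, stood at 3.32, 2.91, 3.43, 4.85 and 0.862 CPM in the controls and 32.1, 36.2, 20.3, 27.9 and 18.7 CPM after 5 d (3.11 ± 0.35, adjusted p 7.6e-06), and *SYT17* rose 4.12-fold (2.04 ± 0.18, adjusted p 6.1e-07). The largest fall was that of another synaptotagmin, *SYT2*, the calcium sensor of fast transmitter release, from 42.0, 43.6, 40.3, 41.2 and 54.8 CPM to 3.43, 4.41, 5.16, 3.56 and 7.11 CPM (−3.24 ± 0.18, adjusted p 1.3e-08). *SV2C*, a vesicle glycoprotein, fell too (−1.28 ± 0.22, adjusted p 0.00025). The 3 synaptotagmin genes changed in opposite directions. Lack of overlap between the groups was a condition for naming them.

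Beside 16.6% of all genes tested called higher and 15.5% lower, ion channel genes rose in 29 of 71 cases (40.8%). They fell in 11 (15.5%), so only the share of rises lay above that of all genes (median 0.39). Without replicate 5 the counts were 27 and 15. *KCNJ9*, a G protein-gated potassium channel subunit, rose 22.9-fold, from 0.575, 0.451, 0.708, 0.836 and 0.0575 CPM to 13.8, 16.6, 10.9, 14.4 and 7.00 CPM (4.52 ± 0.53, adjusted p 8.9e-06). *SCN9A*, the sodium channel of sensory and sympathetic neurons (2.77 ± 0.58, adjusted p 0.0013), and *CACNA1G*, a T-type calcium channel (2.48 ± 0.49, adjusted p 0.0007), rose. The potassium channel genes *KCNJ4* (−3.99 ± 0.47, adjusted p 8.2e-06) and *KCNC4* (−2.31 ± 0.40, adjusted p 0.00027) fell, by 4.89 and 2.94 without replicate 5. Of 54 transmitter receptor genes, 14 were lower and 7 higher, beside 15.5% and 16.6% of all genes tested, and without replicate 5 the counts were 20 and 10. *P2RX3*, an ATP-gated channel of sensory neurons, stood at 60.9, 58.1, 64.3, 69.6 and 16.5 CPM in the controls and 247, 304, 236, 259 and 165 CPM after 5 d (2.16 ± 0.34, adjusted p 0.00013), and *GRIN1*, the shared NMDA receptor subunit, rose 2.75-fold. *GRIN3A*, another NMDA receptor subunit (−2.29 ± 0.35, adjusted p 0.00011), *GABBR2*, a subunit of the GABA-B receptor (−3.05 ± 0.45, adjusted p 6.8e-05), and *DRD2*, the D2 dopamine receptor (−2.23 ± 0.16, adjusted p 1.7e-07), fell. *DRD2* lay at 17.0, 19.1, 18.1, 17.7 and 14.8 CPM in the controls and 4.48, 2.89, 3.32, 3.29 and 4.59 CPM after 5 d.

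Axon guidance and neurotrophin genes were higher in 16 of 68 cases and lower in 17 (19 and 25 without replicate 5), beside 16.6% and 15.5% of all genes tested (18.1% and 16.9% without replicate 5). The largest fall in the list was that of *NGFR*, the p75 neurotrophin receptor. It stood at 99.1, 89.7, 132, 119 and 49.5 CPM in the controls and 3.61, 5.18, 6.71, 3.84 and 7.23 CPM after 5 d and fell 18.5-fold (−4.21 ± 0.34, adjusted p 6.2e-07). Its groups did not overlap, which was a condition for naming it. Among ligands, *BDNF* fell (−1.23 ± 0.16, adjusted p 1.7e-05), and the semaphorin genes *SEMA3C* (3.87 ± 0.57, adjusted p 6.1e-05) and *SEMA3D* (1.71 ± 0.38, adjusted p 0.0018) rose. *EPHA5*, an ephrin receptor gene, fell (−1.61 ± 0.28, adjusted p 0.00023). *ALK*, the receptor kinase mutated in some neuroblastomas, had a value of 0.64 ± 0.29 (adjusted p 0.083) and was not called. It was called without replicate 5 (0.87 ± 0.17, adjusted p 0.00055) and with the replicate block (0.72 ± 0.23), its controls being 94.7, 95.8, 117, 71.5 and 158 CPM and its treated libraries 186, 162, 172, 175 and 149 CPM. *RET* was under the count limit, with at most 1.90 CPM in any of the 10 libraries.

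Of 17 transcription factors of the adrenergic core circuit tested, 12 were not called, 4 were higher and 1 lower (2 lower without replicate 5, median 0.23), beside 32.0% of all genes called. *MYCN* (0.32 ± 0.09), *GATA3* (0.34 ± 0.10) and *HAND2* (0.31 ± 0.13) were inside the limit of 0.5. *MYCN* lay at 1755, 1596, 1762, 1776 and 1296 CPM in the controls and 2218, 1941, 2110, 1919 and 2128 CPM after 5 d. Every treated library was above every control, so the groups differed by a modest amount under the limit. *ISL1* was at 0.46 ± 0.21 (adjusted p 0.082) and was called with the replicate block (0.54 ± 0.16). The members that rose included *SIX3* (1.08 ± 0.31, adjusted p 0.0094) and *KLF7* (0.63 ± 0.15, adjusted p 0.0021), and the member that fell was *ETS1* (−2.22 ± 0.39, adjusted p 0.0003).

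Catecholamine, granule and neuropeptide genes included both rises and falls. *TH*, tyrosine hydroxylase, the first enzyme, stood at 19.1, 13.1, 14.5, 23.7 and 0.804 CPM in the controls and 78.8, 129, 57.9, 84.8 and 20.4 CPM after 5 d and rose 5.14-fold (2.36 ± 0.71, adjusted p 0.013). That call was lost without replicate 2 (2.04) and held without replicate 5 (2.30 ± 0.24, adjusted p 4.5e-06). *DBH*, dopamine beta-hydroxylase, which makes noradrenaline from dopamine, lay at 35.2, 33.3, 11.7, 37.7 and 9.48 CPM in the controls and 1.11, 1.74, 1.49, 0.932 and 2.24 CPM after 5 d and fell 17.0-fold (−4.09 ± 0.49, adjusted p 1.6e-05). The groups were apart for *DBH*, whereas for *TH* treated replicate 5 lay inside the range of the controls. *SLC18A2*, the vesicular monoamine transporter, fell (−1.04 ± 0.29, adjusted p 0.0077), a call lost without replicate 1 (−0.95). Of the granule proteins, *SCG2*, secretogranin II, went from 61.5, 61.0, 61.7, 72.8 and 42.3 CPM to 306, 360, 285, 311 and 243 CPM (2.32 ± 0.13, adjusted p 1.3e-08), and *CHGA*, chromogranin A, rose 2.35-fold (1.23 ± 0.21, adjusted p 0.00021). *VGF*, a neuropeptide precursor, fell (−1.05 ± 0.17, adjusted p 0.00014). Over the list 5 of 28 were higher and 6 lower (median 0.18), shares near the 16.6% and 15.5% of all genes tested, and the counts were 3 higher without replicate 2 and, with the replicate block, 9 higher and 6 lower.

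**Figure D4:**
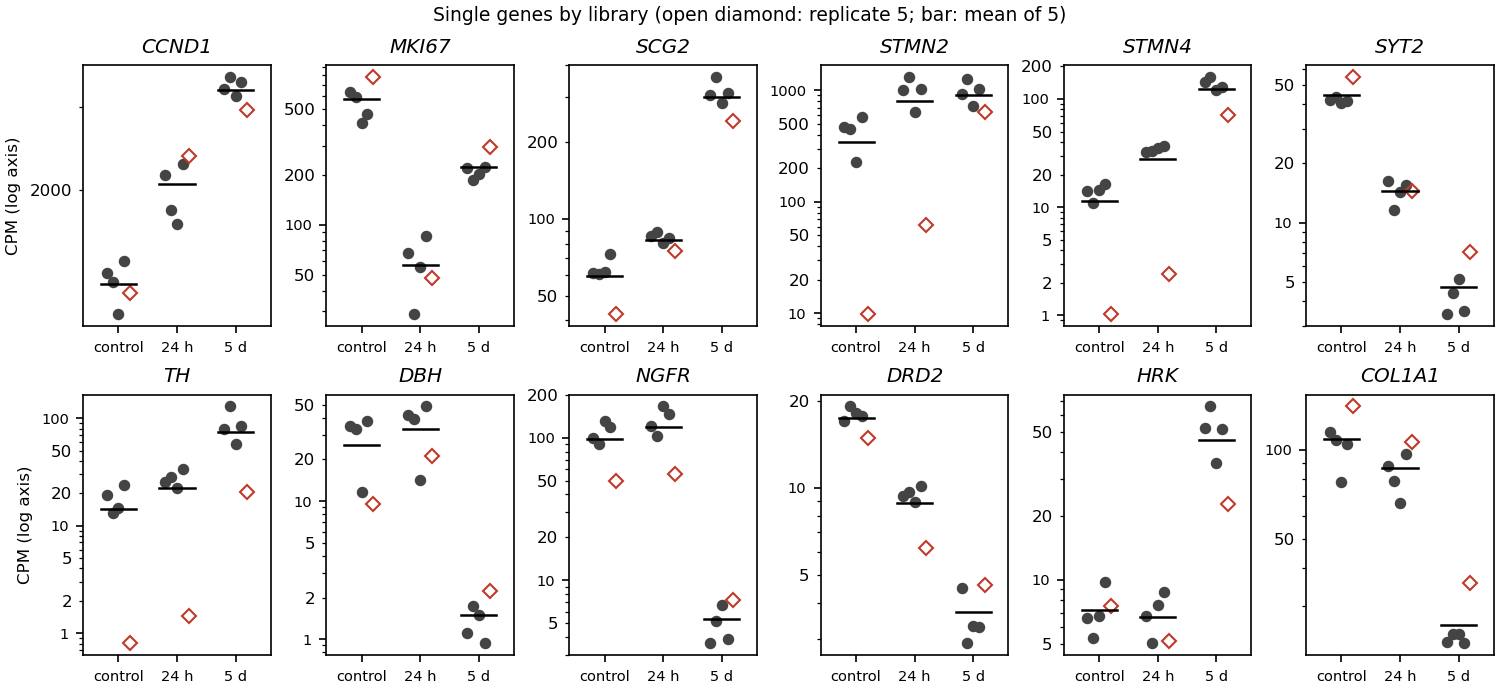
CPM of 12 genes (y axis, log scale) in each of the 15 IMR-32 libraries, by group (x axis); the open diamond is replicate 5 and the bar the mean of 5 libraries. *STMN2*, *STMN4* and *TH* were lowest in replicate 5 of the control and 24 h groups, and *NGFR*, *DBH* and *HRK* were close to control at 24 h.

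Mesenchymal-state genes were lower in 12 of 23 cases with 0 higher (median −0.88), as were 16 of 32 collagen, laminin and integrin genes with 5 higher (median −0.63). Of all genes tested, 15.5% were lower and 16.6% higher. Without replicate 5 the counts were 13 lower and 1 higher, and 18 lower and 8 higher (3 collagen, laminin and integrin genes were higher without replicate 2). *COL1A1*, the type I collagen chain, stood at 115, 108, 77.9, 105 and 140 CPM in the controls and 22.7, 24.1, 24.1, 22.4 and 35.8 CPM after 5 d (−2.09 ± 0.17, adjusted p 5.2e-07). *SPARC*, a collagen-binding glycoprotein, fell 2.87-fold (−1.52 ± 0.12, adjusted p 4.6e-07), and *FN1*, fibronectin, fell 3.62-fold (−1.86 ± 0.39, adjusted p 0.0013), with control replicate 5 at 79.4 CPM and the other controls at 19.1 to 29.4 CPM. *NID1*, a basement membrane protein (−3.19 ± 0.34, adjusted p 4.6e-06), *COL4A1* (−1.87 ± 0.23, adjusted p 1.6e-05) and *ITGA2*, a collagen receptor (−2.62 ± 0.35, adjusted p 2.9e-05), fell, while *COL5A2* (1.36 ± 0.25, adjusted p 0.00041) and *COL6A1* (0.87 ± 0.18, adjusted p 0.00085) rose. *CDH11*, a cadherin of mesenchymal cells, lay at 16.7, 19.5, 19.1, 19.2 and 38.0 CPM in the controls and 0.291, 0.109, 0.631, 0.0548 and 3.02 CPM after 5 d (−4.78 ± 0.64, adjusted p 3.9e-05, and −6.10 without replicate 5). Of 9 fibroblast markers found, 5 were tested, 4 were lower and 1 higher (0 higher without replicate 1 or 5 d replicate 4) and *TWIST2* was at 0 in all 10 libraries. Their summed level was 522 to 687 CPM in the controls and 235 to 429 CPM after 5 d. *PDGFRA* lay at 36.6, 41.5, 37.7, 34.3 and 114 CPM in the controls and 6.28, 4.85, 10.5, 7.45 and 24.3 CPM after 5 d (−2.32 ± 0.62, adjusted p 0.0062), and *PDGFRB* fell 2.55-fold (−1.35 ± 0.16, adjusted p 1.1e-05). Whether these falls share a source with those of the mesenchymal genes was not tested. The Schwann and glial markers summed to 1.26 to 3.65 CPM in the controls and 5.33 to 9.26 CPM after 5 d, and the 1 marker tested was higher.

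Beside 16.6% of all genes tested called higher and 15.5% lower, genes of cholesterol and fatty acid synthesis were lower in 17 of 35 cases with 1 higher (median −0.49). Without replicate 5 the counts were 24 lower and 1 higher. The mean level of the list in treated replicate 5, 6.94 log2 CPM, lay above that in control replicate 5, 6.82, so the groups overlapped by that library. *INSIG1*, a sterol-regulated brake on SREBP, fell (−1.57 ± 0.27, adjusted p 0.00027), and *SCD*, the fatty acid desaturase, lay at 1358, 1464, 1182, 1377 and 1053 CPM in the controls and 500, 521, 498, 495 and 906 CPM after 5 d (−1.15 ± 0.16, adjusted p 4.7e-05), with treated replicate 5 far above the other treated libraries. The member that rose, *TM7SF2*, a sterol reductase (1.18 ± 0.44, adjusted p 0.038), lost its call under 10 of the alternatives. Lysosome genes rose in 19 of 62 cases (30.6%) with 4 lower (6.45%, median 0.26). *IDUA* (1.57 ± 0.23, adjusted p 7.1e-05) and *IDS* (1.19 ± 0.18, adjusted p 7.8e-05), enzymes that degrade glycosaminoglycans, rose, and *TFEB*, the factor that drives lysosome genes, fell (−1.26 ± 0.28, adjusted p 0.0015). Of 19 interferon and antigen presentation genes tested, 9 were lower (47.4%) and 3 higher (15.8%, near the share of all genes), with a median of −0.73. *IFI44L* was at 2.12, 4.06, 1.69, 1.5 and 16.8 CPM in the controls and had reads in only 1 treated library (0.0545 CPM), so its fitted fold change depends on the prior count and is not given. *STAT2*, a mediator of interferon signals, rose (0.82 ± 0.09, adjusted p 3.5e-06).

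The counts of the smaller lists stand beside 16.6% of all genes tested called higher and 15.5% lower, and several of their shares lie near or under these. BMP and TGF-beta feedback genes were lower in 6 of 23 cases and higher in 1 (9 lower and 3 higher with the replicate block, 7 and 3 without replicate 5). *NOG*, the BMP antagonist noggin, fell (−2.02 ± 0.33, adjusted p 0.00015, and −2.65 without replicate 5), and *SMAD9*, a BMP effector, rose (0.63 ± 0.11, adjusted p 0.0002). Retinoid and retino-sympathetic genes were lower in 6 of 15 cases and higher in 1 (4 higher with the block, 3 without replicate 5 and 0 without replicate 1, replicate 2, replicate 4 or control replicate 5), with *RXRA*, the retinoid X receptor (−1.08 ± 0.18, adjusted p 0.00018), and *CYP26B1*, which breaks down retinoic acid (−1.43 ± 0.27, adjusted p 0.00049), lower. Of chromatin and growth factors in the LIN28B, HMGA and DNA methylation list, 10 of 35 were lower and 5 higher. *UHRF1*, needed to copy DNA methylation, went from 191, 200, 219, 185 and 318 CPM to 72.1, 52.3, 76.3, 58.6 and 106 CPM (−1.62 ± 0.25, adjusted p 0.0001), *EZH2*, the Polycomb methyltransferase, fell 2.19-fold and *H19*, an imprinted noncoding RNA, fell 5.40-fold (−2.43 ± 0.46, adjusted p 0.00059). Hypoxia and glycolysis genes (2 of 34 higher, 4 without replicate 5 and 1 without any of replicates 1 to 4, and 4 lower), primary cilium genes (4 of 50 higher, 7 without control replicate 1, and 3 lower, 1 without replicate 5 or control replicate 5), serine, one-carbon and ATF4 genes (4 of 30 higher, 2 without any of replicates 1 to 4, and 10 lower) and immediate early genes (4 of 22 higher and 5 lower, 8 lower with the block and 3 without replicate 1, replicate 4, 5 d replicate 4 or control replicate 5) completed the lists, with medians of −0.10, 0.05, −0.19 and −0.01. Lists share some genes, such as *COL1A1* in the mesenchymal and the collagen list.

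The naming rule required a call with and without replicate 5, no overlap of the groups and at least 2 CPM in the higher group, and 3099 genes met it. Beside *KCNJ9* and *SEMA3C*, given above, the 12 largest rises included *FXYD7*, a modulator of the sodium pump, at 0.0442, 0, 0.0544, 0.0836 and 0 CPM in the controls and 3.20, 4.69, 1.2, 2.69 and 0.560 CPM after 5 d, and *MGAT4C*, a glycosyltransferase gene, at 0.133, 0.501, 0.109, 0.167 and 0 CPM in the controls and 6.86, 12.3, 6.53, 10.5 and 2.63 CPM after 5 d (5.33 ± 0.67, adjusted p 1.7e-05, and 6.06 without control replicate 2). *HMCN2* (4.03 ± 0.93), *YPEL4* (3.89 ± 0.49), *ADCY8*, an adenylate cyclase of neurons (3.77 ± 0.66), *PHACTR3* (3.74 ± 0.58), *TRANK1* (3.74 ± 0.42), *CNGB1*, a cyclic nucleotide-gated channel subunit (3.70 ± 0.41), and *RFPL1* (3.57 ± 0.65) completed the 12 with *KRTAP5-AS1*, at 0 to 0.209 CPM in the controls and 0.896 to 3.29 CPM after 5 d. The controls of *FXYD7* and *KRTAP5-AS1* averaged under 3 reads a library, too few for a fold change. In replicate 5 *HMCN2* stood at 2.18 CPM both in the control and after 5 d, so the groups were apart only past the digits given, and the value was 5.33 for *HMCN2* without replicate 5 and 4.58 for *PHACTR3* without control replicate 3. *TRANK1* went from 8.27, 7.51, 2.78, 10.3 and 1.95 CPM to 95.5, 107, 48.9, 110 and 59.5 CPM.

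In the other direction, *TCF7L1*, a repressor of WNT target genes, lay at 6.85, 4.96, 5.61, 5.6 and 17.9 CPM in the controls and 0, 0.163, 0.229, 0.110 and 0.560 CPM after 5 d (−5.24 ± 0.65, adjusted p 1.6e-05). *ABCC9*, a subunit of ATP-sensitive potassium channels (−5.05 ± 0.55), *LRIG3* (−4.52 ± 0.32), *PTPN14*, a phosphatase (−4.50 ± 0.60), *S1PR3*, a lipid receptor (−4.27 ± 0.54), and *ZFP36L1*, which promotes mRNA decay (−4.22 ± 1.08), fell, with *CDH11* and *IFI44L* among the same 12. The others were *ARSJ*, at 2.30, 1.85, 3.54, 1.59 and 13.8 CPM in the controls, *ARSI*, at 1.90, 2.15, 3.37, 2.26 and 8.79 CPM in the controls, *PROM1*, the CD133 gene, at 1.77, 2.10, 3.05, 1.25 and 3.28 CPM, and *SOCS1*, an inhibitor of cytokine signals, at 3.45, 1.75, 1.52, 2.84 and 2.01 CPM. After 5 d these 4 genes averaged under 3 reads a library, too few for a fold change. *TCF7L1*, *ABCC9*, *S1PR3* and *KCNJ4* after 5 d, and *MGAT4C*, *RFPL1* and *SEMA3C* in the controls, averaged 3.0 to 4.6 reads a library, so the sizes of their fold changes are uncertain. Without replicate 5 the values were −5.81 for *ABCC9*, −3.88 for *PTPN14* and −3.32 for *ZFP36L1*. Without control replicate 5 alone the value was −2.63 for *ZFP36L1*, and without 5 d replicate 5 alone −5.97 for *TCF7L1*. The treated level of *ZFP36L1* was 0.524, 0.327, 0.516, 0.438 and 1.85 CPM and its control level 5.66, 5.91, 3.54, 3.05 and 49.7 CPM, with control replicate 5 far above the others.

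The 24 h samples of the same line, given the same dose, show which of these differences were already there. Between 24 h and 5 d, 1537 genes were called higher (10.8%) and 1266 lower (8.86%), and without replicate 2 the count of lower genes was 840. Cell-cycle genes were at their lowest at 24 h and higher at 5 d: 64 of 69 mitosis genes and 43 of 57 replication genes were called higher at 5 d than at 24 h. The mean log2 CPM of the mitosis list was 6.44, 6.5, 6.5, 6.38 and 6.92 in the controls, 4.07, 3.95, 4.0, 4.06 and 4.15 at 24 h and 5.34, 5.14, 5.53, 5.34 and 5.79 at 5 d. The 3 groups did not overlap. *E2F8* was at 0.114 ± 0.0632 CPM at 24 h (mean ± SD, n = 5) and 3.20 ± 0.809 CPM at 5 d, below the control level of 13.6 ± 6.07 CPM (5 d against 24 h 4.66 ± 0.41, adjusted p 8.3e-07). *E2F2*, *CCNE2*, the cyclin E2 gene, and *RRM2* were higher at 5 d than at 24 h by 4.46, 3.52 and 3.44 on the log2 scale, with adjusted p of 1.9e-08, 1.5e-06 and 9.6e-09. Time in culture and time in PB cannot be told apart in this comparison either.

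Some other genes were near their control level at 24 h. *NGFR* was at 118 ± 42.3 CPM at 24 h and 5.31 ± 1.64 CPM at 5 d (5 d against 24 h −4.53 ± 0.34, adjusted p 3.4e-07), and *DBH* at 33.0 ± 14.6 and 1.5 ± 0.521 CPM (−4.51 ± 0.50, adjusted p 1.4e-05). Of those higher at 5 d, *HRK* went from 6.65 ± 1.62 to 45.6 ± 16.7 CPM (2.72 ± 0.26, adjusted p 2.1e-06), *SEMA3C* from 0.182 ± 0.130 to 3.36 ± 2.03 CPM and *PHACTR3* from 0.969 ± 0.894 to 12 ± 1.45 CPM. By contrast, *TP53INP1* and *DYRK1B*, which were higher at 5 d than in the controls, stood at their 5 d level already at 24 h. They differed between these times by less than their standard error, at 108 ± 5.61 and 110 ± 15.6 CPM (−0.02 ± 0.12) and at 68.1 ± 8.12 and 68.4 ± 11.2 CPM (−0.05 ± 0.24). Cytosolic ribosomal protein genes were lower at 5 d than at 24 h in 53 of 77 cases (median −0.57), with mean levels of 9.40, 10.03, 9.49, 9.49 and 9.42 log2 CPM at 24 h, of which replicate 2 was the highest, and 9.06, 8.92, 9.19, 8.94 and 9.0 at 5 d.

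SH-SY5Y, another ADRN line, had the same 5 d of PB, with 5 samples each of control and treatment, and the difference between the responses of the lines was tested in 1 fit of both. Of 15686 genes tested, the response of IMR-32 was higher for 1702 (10.9%) and lower for 1608 (10.3%). Of 69 mitosis genes, 31 had a higher response in IMR-32 than in SH-SY5Y and 0 a lower one, with medians of −1.14 and −1.89. For replication genes 21 of 57 were higher and 0 lower, with medians of −0.82 and −1.34. *MKI67* differed by 1.95 ± 0.55, adjusted p 0.0082 (IMR-32 minus SH-SY5Y). Neurite cytoskeleton genes had a higher response in IMR-32 for 22 of 54 and a lower one for 2, with medians of 0.73 and 0.00. The catecholamine and granule list went the other way, with 11 of 31 lower and 2 higher. *DBH* was at 1700 ± 346 and 1932 ± 420 CPM in SH-SY5Y, and its response differed by −4.22 ± 0.52, adjusted p 1.2e-06. For *SLC18A2* the difference was −2.76 ± 0.37, adjusted p 2.5e-06 and for *NGFR* −3.67 ± 0.39, adjusted p 1.1e-07, and *SYT2* (−3.51 ± 0.37) and *DRD2* (−2.31 ± 0.25), also lower in IMR-32, differed likewise.

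**Figure D5:**
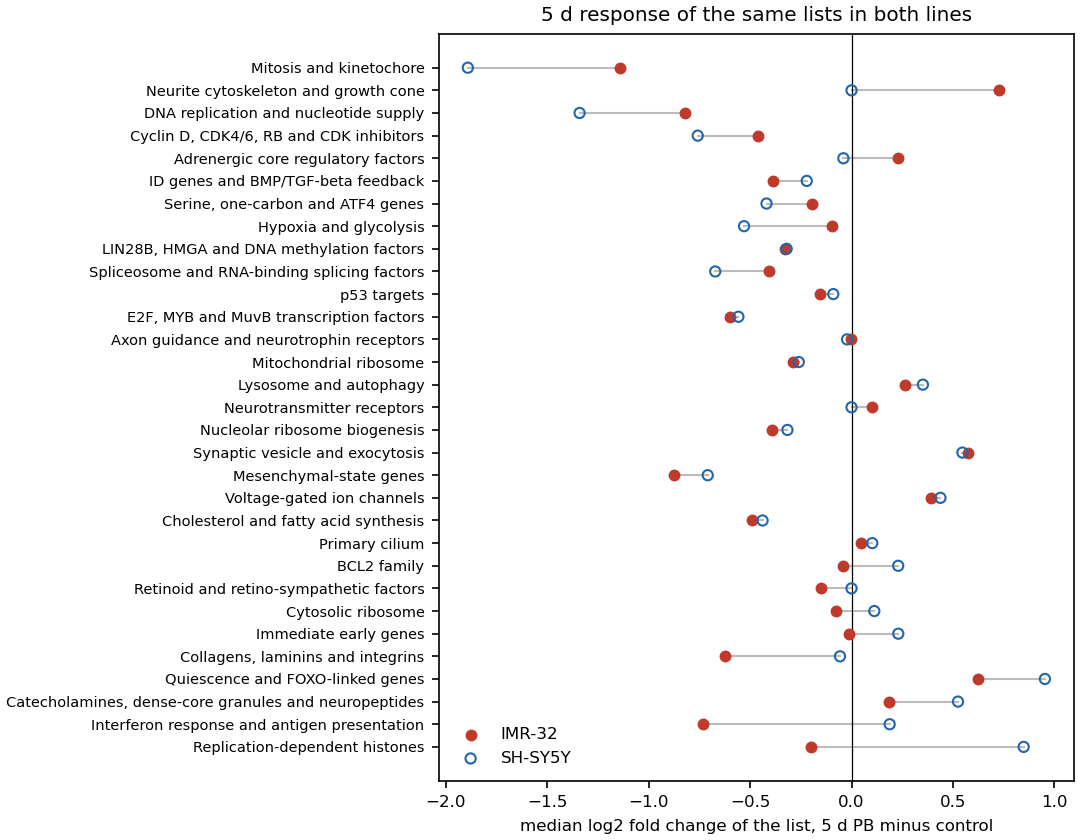
Median log2 fold change of each list at 5 d of PB (x axis) in IMR-32 (filled) and SH-SY5Y (open), over the members tested in both fits, ordered by the median difference between the lines. The mitosis list stands at −1.14 and −1.89, and the neurite list at 0.73 and 0.00.

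By the rule for single genes, the largest differences with a higher response in IMR-32 were those of *NRP1*, a semaphorin and VEGF coreceptor, *CALB1*, a calcium buffer, *KCNK10*, a leak potassium channel, *RFPL1* and *PDE7B*, a phosphodiesterase. *NRP1* rose from 97.3, 100, 98.8, 87.2 and 78.7 CPM to 180, 158, 181, 188 and 114 CPM in IMR-32 and went from 9.27 ± 3.0 to 0.679 ± 0.345 CPM in SH-SY5Y, a difference of 4.62 ± 0.33, adjusted p 1.9e-10. *KCNK10* and *RFPL1* were at or under 0.120 CPM on average in either SH-SY5Y group, so their differences rest on few reads. With a lower response in IMR-32, *ABCC9* (−6.06 ± 0.49, adjusted p 1.1e-09), *TCF7L1* (−5.65 ± 0.63, adjusted p 2.1e-07) and *H19* (−6.26 ± 0.63, adjusted p 4.3e-08) led among genes that both lines express. *H19* went from 93.1 ± 39.7 to 17.4 ± 8.27 CPM in IMR-32 and from 3.44 ± 1.44 to 50.9 ± 22.4 CPM in SH-SY5Y. *HES2* and *CHRNA1* also met the rule, with fitted differences of −7.60 ± 2.27 and −7.18 ± 2.35, but SH-SY5Y controls had 0 counts of both and these values depend on the prior count. In IMR-32 *CHRNA1*, a muscle-type acetylcholine receptor subunit, lay at 156, 156, 87.6, 170 and 47.4 CPM in the controls and 22.9, 16.3, 21.2, 22 and 34.8 CPM after 5 d.

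Replicate 5 decided some calls. Of the genes called only with it, the 4 with the smallest p were *FBXL18*, *ATP6V1A*, *DESI1* and *INTS8*, whose values of 0.53, 0.57, 0.51 and −0.50 lay at the limit of 0.5 and moved to 0.50, 0.50, 0.45 and −0.46 without it. Of those called only without it, the 4 with the smallest p had larger differences and a wider spread. *SULF2*, a heparan sulfate sulfatase, stood at 141, 148, 138, 129 and 392 CPM in the controls and 47.7, 39.4, 62.7, 50.3 and 191 CPM after 5 d (−1.29 ± 0.52, adjusted p 0.051, and −1.48 ± 0.13, adjusted p 1.1e-07 without replicate 5). Replicate 5 was the highest library in both groups. *TAFA2* stood at 20.2, 19, 22.4, 21.3 and 1.55 CPM in the controls and 60.0, 80.2, 48.3, 63.5 and 11.1 CPM after 5 d (1.62 ± 0.69, and 1.59 ± 0.13 without replicate 5), where replicate 5 was the lowest in both. *SLC27A2* (−1.22 ± 0.59 and −1.43 ± 0.11) and *LRTM2* (−1.04 ± 0.42 and −1.2 ± 0.10) were the others. With the replicate number as a block, *SULF2* (−1.41), *TAFA2* (1.76) and *LRTM2* (−0.90) were called as well.

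On GRCh37, the build of hg19, GENCODE places *NGFR* at chr17:47572655-47592370, *DBH* at chr9:136501485-136524451, *SYT2* at chr1:202559724-202679582, *CDH11* at chr16:64977656-65160015, *SCG2* at chr2:224461658-224467079, *HRK* at chr12:117293949-117319246, *CCND1* at chr11:69455924-69469242 and *COL1A1* at chr17:48261462-48278993. These values are read counts over all exons of a gene. The strand setting of the counting is unknown here, and 48 of the 124 genes named with values have an exon that another gene overlaps on the opposite strand, which leaves their values uncertain. The overlap is longest for *PTPN14*, *MGAT4C*, *KRTAP5-AS1*, *RFPL1*, *TYMS*, *PRPH*, *SYT2*, *SCN9A*, *NGFR*, *SLC18A2* and *CDK4*.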

How the data were processed

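Gene expression was measured by RNA-seq in 5 control and 5 palbociclib-treated (5 d) samples of IMR-32, and the fits also used the 5 samples at 24 h. The authors trimmed reads with Trim Galore 0.6.4 (minimum phred score 20) and aligned them to hg19 with STAR 2.6.1d, per the labels, and deposited raw counts of reads per gene. No source used here gives the strand setting of the counting. Deposited tables of CPM and of the authors' own comparisons (fold changes and p-values from DESeq2 1.32.0) were not used.

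The test was run in R 4.3.3 with edgeR 4.0.16 and limma 3.58.1, with filterByExpr (minimum count 10, total 15, share 0.7), TMM normalization and the robust quasi-likelihood F test in 1 model of the 3 IMR-32 groups, with Benjamini-Hochberg adjustment over all genes tested. Calls needed a log2 fold change of more than 0.5 either way at an adjusted p below 0.05. Standard errors were computed as the absolute log2 fold change over the root of the F statistic. CPM is relative to the library's total, and log2 CPM has a prior count of 2. The biological coefficient of variation was 19.8%. The difference between lines was an interaction contrast of both lines' control and 5 d groups. Its fit also held the 24 h samples of both lines. The model was tested before use on simulated counts, with 1 dispersion for every gene and independent libraries. No deviant replicate was simulated, so that test cannot speak to the effect of replicate 5.

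Genes named were the 12 largest rises and falls among genes called with and without replicate 5, with at least 2 CPM in the higher group and no overlap of the groups, up to 3 rises and falls in each list by the same conditions, a fixed set of 22 genes, the 6 largest changes in each direction from 24 h, the 5 largest differences from SH-SY5Y, and the 4 genes that lost and the 4 that gained a call without replicate 5; the text gives part of them. Some named genes are not reported here. Members and lists were chosen with earlier results of these data known.

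The correlation of control and 5 d deviations was 0.114 to 0.478 for the same number and −0.426 to 0.339 for other numbers. These ranges overlap: control replicate 4 correlated 0.114 with 5 d replicate 4 and 0.339 with 5 d replicate 2. Whether the number pairs the samples is therefore not settled, and it was used as a block only in an alternative fit. No 2 libraries were repeats: the chi-square of their counts, per degree of freedom, was 4.16 to 12.4 between control pairs and 4.61 to 17.7 between 5 d pairs without replicate 5, and 56.8 to 85.9 and 22.3 to 48.6 with it. Replicates are passages of 1 line, so p-values measure the spread between passages. Alternatives were RLE size factors, library totals, no filter, DESeq2 1.42.0, no robust estimation, other limits and leaving out replicates. Promoter sequences came from RefSeq (GRCh38.p14) and gene positions from GENCODE on GRCh37.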

Additional observations from a re-analysis of the deposited data

Results flagged for a closer look

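A library was singled out when its gap to the nearest other library, divided by the range of the 5 libraries of its group, was above 0.71. Chance singles out about 1 in 20 groups, and here it was 13 of 70 groups for the mean log2 CPM of a list and 50 of 248 for the log2 CPM of a gene given above. In 59 of these 63 cases the library was replicate 5. Its part in each result was not tested beyond the fits without it. Among lists, control replicate 5 stood apart for E2F, MYB and MuvB transcription factors (0.8877), mitosis and kinetochore (0.7768), neurite cytoskeleton and growth cone (0.9042), synaptic vesicle and exocytosis (0.7884), voltage-gated ion channels (0.7743), neurotransmitter receptors (0.9344), axon guidance and neurotrophin receptors (0.7384), retinoid and retino-sympathetic factors (0.778), mesenchymal-state genes (0.8335), ID genes and BMP/TGF-beta feedback (0.8727) and lysosome and autophagy (0.8362), and 5 d replicate 5 for replication-dependent histones (0.8398) and cholesterol and fatty acid synthesis (0.8128).

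Among genes, control replicate 5 stood apart for *AURKB* (0.9134), *CDCA3* (0.7154), *CDH11* (0.8244), *DYRK1B* (0.803), *E2F7* (0.8816), *E2F8* (0.743), *ETS1* (0.8329), *GRIN1* (0.8273), *IDS* (0.711), *ISL1* (0.8883), *KIF5A* (0.8786), *LRTM2* (0.9249), *P2RX3* (0.8689), *PDGFRA* (0.8499), *PIK3IP1* (0.8492), *PRPH* (0.7151) and *PTBP1* (0.8371). The same library stood apart for *SCN9A* (0.791), *SEMA3D* (0.9131), *SIX3* (0.8139), *SLC27A2* (0.8909), *SMAD9* (0.761), *STMN2* (0.7717), *STMN4* (0.8446), *SULF2* (0.8827), *SYT2* (0.7902), *TAFA2* (0.9328), *TCF7L1* (0.7525), *TH* (0.8157), *TM7SF2* (0.9274), *TUBB3* (0.8413), *TUBB6* (0.7603), *TYMS* (0.8193) and *ZFP36L1* (0.77). For 5 d replicate 5 the genes were *CDKN1A* (0.8705), *COL1A1* (0.7987), *H2AC6* (0.9052), *HMCN2* (0.7959), *KCNC4* (0.7932), *KCNJ4* (0.7567), *RFPL1* (0.7611), *RXRA* (0.822), *SCD* (0.9174), *TAFA2* (0.752), *YPEL4* (0.7561) and *ZFP36L1* (0.7417). Other libraries were singled out in the remaining cases, namely 5 d replicate 2 for *CDKN2A* (0.7696), 5 d replicate 2 for *COL5A2* (0.7457), 5 d replicate 2 for *IFI44L* (1) and control replicate 3 for *POLR1E* (0.7945).

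The response to 5 d of PB differed between IMR-32 and SH-SY5Y, by the test of the difference, for 1702 genes with a higher and 1608 with a lower response in IMR-32. For the genes named by the rule, the log2 difference (IMR-32 minus SH-SY5Y) was *HES2* (−7.604), *CHRNA1* (−7.185), *H19* (−6.262), *ABCC9* (−6.057) and *TCF7L1* (−5.647) on the lower side. On the higher side it was *PDE7B* (4.257), *RFPL1* (4.338), *KCNK10* (4.415), *CALB1* (4.586) and *NRP1* (4.624). *HES2* and *CHRNA1* had 0 counts in the SH-SY5Y controls, so their values depend on the prior count.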

How the results depend on the processing

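The count of genes called at 5 d against control moved with the limit on the fold change. With the adjusted p alone it was 7296 (3641 higher and 3655 lower), and with a log2 fold change beyond 1 it was 1972 (1031 higher and 941 lower). Leaving out 1 library or 1 replicate number at a time gave 4044 to 5040 genes (2023 to 2608 higher, 2021 to 2432 lower). For 5 d against 24 h the range was 1932 to 3518 (1092 to 1941 higher, 840 to 1577 lower, the lowest without replicate 2), and for the difference from SH-SY5Y 2311 to 4189 (1161 to 2179 higher, 1150 to 2010 lower). RLE size factors, library totals alone, no filter on low counts, DESeq2, the 10 libraries alone and no robust estimation gave 4504 to 5070 genes. With the replicate number as a block, 5005 genes were called at 5 d against control, 3307 against 24 h and 3845 for the difference from SH-SY5Y. Of 187 named genes with a fit, 172 were called and 158 of these held their call under every alternative. The block lost 0 of these calls and added 6, and changed no other call of a named gene. No value of a named gene turned its direction. Where a call changed, the cause was not tested. Depth limits genes with few reads, such as *IFI44L* and *FXYD7*, and with 5 libraries a group the spread of each gene rests on few values.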
